A study of Bos taurus with 8 samples.

Results

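The genes described here encode the chaperones of the cytosol and mitochondria, measured in the liver of bovine fetuses whose dams received low or high nutrition during gestation. Members were chosen by symbol: the HSP70 and HSP110 genes (HSPA and HSPH1, without HSPA5), cytosolic HSP90 (HSP90A) and mitochondrial TRAP1, the small heat shock proteins (HSPB), the mitochondrial chaperonin (HSPD1 and HSPE1), the cytosolic chaperonin (TCP1 and the CCT genes), prefoldin (PFDN), and the J-domain genes DNAJA, DNAJB and DNAJC. Of 85 such genes in the reference table, 75 were matched by a probe of the array, out of 12603 matched genes in all. For 69 of them a probe was detected, which required a signal well above background on 4 or more of the 8 arrays, out of 10860 detected genes. The probe with the highest mean signal represented a gene with several, and at that probe each of the 69 was well above background on all 8 arrays. The name fits most but not all members, since symbols were the only criterion: DNAJB9, DNAJB11, DNAJC3, DNAJC10 and HSPA13 are proteins of the endoplasmic reticulum, and several DNAJC proteins serve special tasks such as clathrin uncoating or histone handling.

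Dams were Japanese Black cows fed 60% (LN) or 120% (HN) of their overall nutritional requirement during gestation, and fetal liver was taken at 8.5 months, around day 260 ± 8.3. Each group had 4 fetuses, named L5, L6, L8 and L9 in LN and L1, L2, L3 and L10 in HN. All fetuses came from male-sorted semen of 1 sire, and per the study's methods those with the lowest body weight in LN and the highest in HN were taken, so diet and fetal size differed together. There was no group at 100% of the requirement. The sample labels give 1 fetus per array, although the series description speaks of pooled RNA per group. The 4 LN arrays shared 1 slide and the 4 HN arrays another, so slide and diet cannot be told apart in any difference given here.

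Chaperones bind proteins that are not yet folded or have lost their fold. HSP70 proteins bind short exposed stretches in a cycle driven by ATP: a J-domain protein brings the client and stimulates ATP hydrolysis, and a nucleotide exchange factor such as HSP110 lets the client go. HSP90 acts later on kinases and hormone receptors, the chaperonins enclose a chain in a chamber, and prefoldin hands actin and tubulin to the cytosolic chaperonin. A part of the genes, HSPA1A, DNAJB1 and HSPH1 among them, is induced by the heat shock factor HSF1, while others are made in every growing cell.

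Per array, between 32635 and 34369 of 43803 spots were well above background and none was saturated. Over all 33439 detected probes, 0 passed an adjusted p of 0.05 in limma's test, the lowest adjusted p was 0.634, and the unadjusted p was 0.05 or less for 2113. Over 6 hepatocyte markers the median difference was 0.03. ALB lay between 17.81 and 17.89 on the log2 scale in the 8 fetuses, while AFP, the fetal serum protein, lay between 16.09 and 17.47 with a difference of 0.34 ± 0.36. All 6 measured erythroid markers (of 8 listed) were higher in LN, with a median difference of 1.27, and their mean log2 signal lay between 7.56 and 11.88 in LN and between 6.39 and 8.60 in HN. The highest was L5, whose median erythroid deviation was 3.41, and without L5 the median difference was 0.28. Of 9 neutrophil markers, 8 were higher in LN (median 1.27, mean log2 signal 9.46 to 10.79 in LN and 8.34 to 9.54 in HN; median 0.83 without L9). Of 8 immediate early genes, 7 were higher in LN (median 0.56), led by L8 with a median deviation of 1.29, and without L8 the median was 0.16. The part of these in the chaperone differences below was not tested. In bulk liver, fewer cells of a type and less RNA per cell cannot be told apart.

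Chaperone genes were more often higher than lower in LN, by small amounts. Of the 69 detected members, 50 were higher in LN (72.5%, against 51.6% of all detected genes), and the median difference, LN minus HN in log2 signal, was 0.17 against 0.01 over all detected genes. At the level of probes, 123 of 160 were higher (76.9%, against 50.3% of all detected probes). Among the 44 members with more than 1 detected probe, all probes were higher in 27, all were lower in 3, and probes pointed both ways in 14.

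No member was called as changed: 0 of 69 passed an adjusted p of 0.05 in limma's test (0% of all genes did). Their adjusted p lay between 0.760 and 0.999. By unadjusted limma p (0.05 or less), 8 members were higher in LN (11.6%; background 3.3% of all genes) and 0 were lower (background 2.75%). The 8 were CCT5, CCT2, HSPE1, HSPA9, HSP90AA1, HSPD1, PFDN4 and DNAJC6. All 4 LN fetuses lay above all 4 HN fetuses for 7 members (10.1%; background 2.59%) and below them for 1 (background 1.56%). The count of 8 fell whichever fetus was left out. It was 3 without LN fetus L5 or without HN fetus L10 and 5 without L8, L9 or L1. It was 6 without L3 and 7 without L6 or L2. The members counted also changed, with DNAJB1 entering without L5 and DNAJA4 and HSPA8 without L6. Whether particular fetuses or only the smaller number of arrays lowered the count was not tested. The count was 4 with array position on the slide as a block: CCT5, CCT2, HSPH1 and DNAJC6. With that block the unadjusted limma p of HSPE1, HSPA9, HSP90AA1, HSPD1 and PFDN4 was above 0.05. Under the other alternatives run the count lay between 7 and 9.

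**Figure D1:**
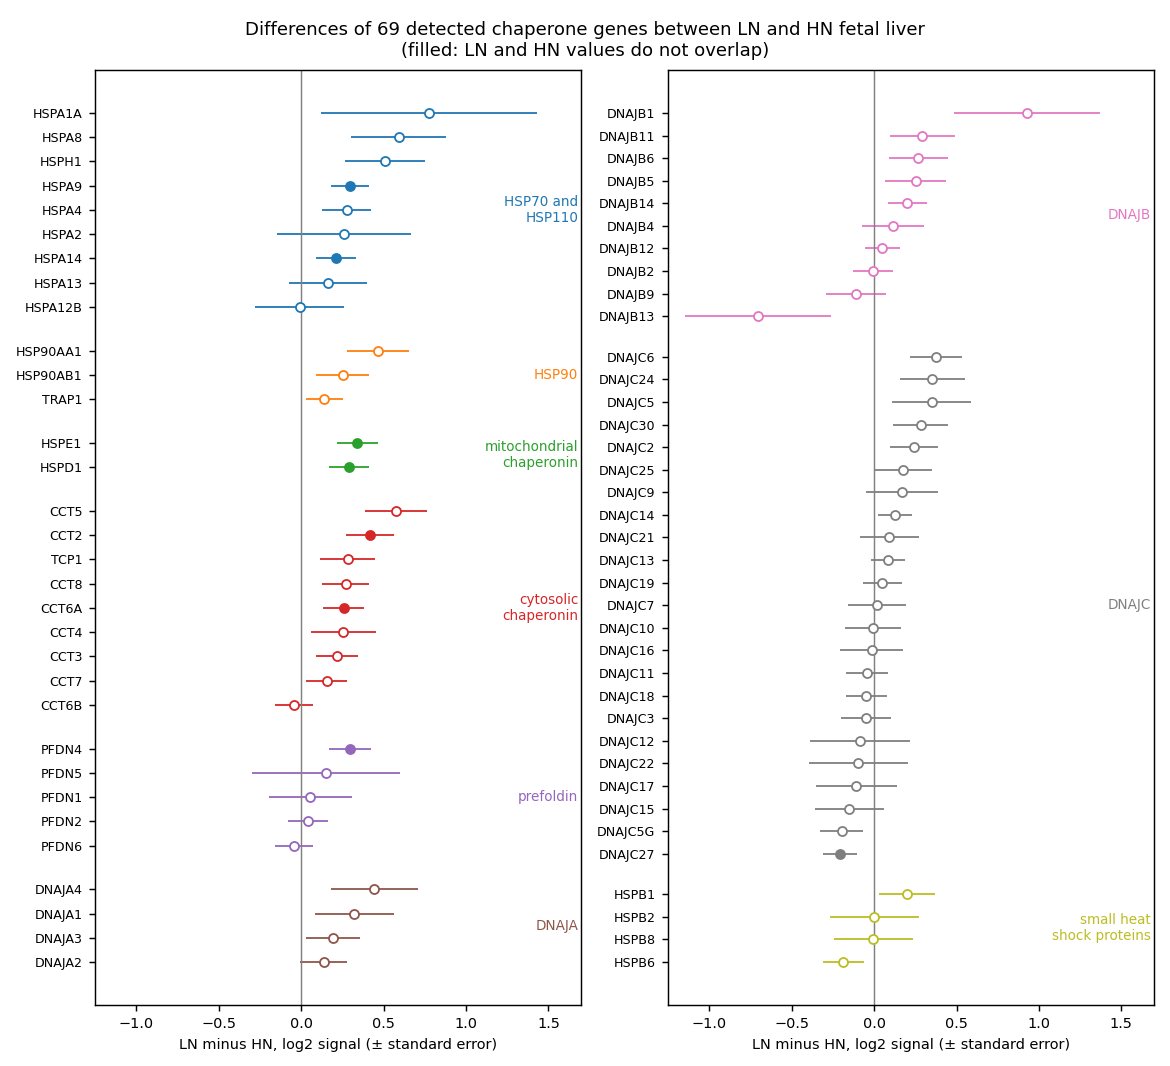
Difference of each of 69 detected chaperone genes between LN and HN fetal liver, in log2 signal, ordered within families; the horizontal axis is LN minus HN, points are differences of means over 4 fetuses per group and bars are ± 1 standard error of limma's fit. Filled points mark the 8 genes whose LN and HN values did not overlap, 7 of them to the right of 0, and the HSP70, HSP90, chaperonin and DNAJA points lie mostly to the right while the 23 DNAJC points lie on both sides.

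Counts by family are given without a test between families. Higher in LN were 8 of 9 HSP70 and HSP110 genes (median 0.28), 3 of 3 HSP90 genes (0.25), both genes of the mitochondrial chaperonin (0.32), 8 of 9 of the cytosolic chaperonin (0.26) and 4 of 4 DNAJA genes (0.26). DNAJB had 7 of 10 higher (0.16, and 0.09 without L8) and prefoldin 4 of 5 (0.06, and 2 of 5 higher without L3). The largest family, DNAJC, had 12 of 23 higher with a median of 0.02, close to that of all genes, and the small heat shock proteins had 2 of 4 with a median of -0.0016 that turned to 0.01 with 75th percentile scaling.

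Mitochondrial proteins made up 3 of the 7 members with every LN fetus above every HN fetus. They were 3 of 9 detected members that act in mitochondria, grouped after the values were seen (background 2.59% of all genes). HSPA9, the HSP70 of the matrix that pulls imported proteins through the inner membrane, had log2 signals of 13.39, 13.18, 13.22 and 13.37 in L5, L6, L8 and L9. In L1, L2, L3 and L10 it had 13.03, 13.06, 13.05 and 12.82. The groups were 0.12 apart at their nearest fetuses, and L10 was the low one in HN. The difference was 0.30 ± 0.11 (SE), which is 1.23-fold, with an unadjusted limma p of 0.029 and an adjusted p of 0.768. The exact 2-sided permutation p was 0.0286, the smallest that 8 fetuses in 2 groups of 4 allow. Every gene without overlap has this p, here and below, so it adds nothing to the separation by which such genes were named. Left-out fetuses moved the HSPA9 difference between 0.24 and 0.33, and the other detected HSPA9 probe gave 0.33.

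HSPD1 and HSPE1 are the barrel and the lid of the mitochondrial chaperonin, and they are next to each other in the reference annotation. HSPD1 had log2 signals of 13.65, 13.31, 13.41 and 13.48 in L5, L6, L8 and L9 and of 13.16, 13.31, 13.20 and 13.03 in L1, L2, L3 and L10. HSPE1 had 15.03, 14.64, 14.95 and 14.87 in the LN fetuses and 14.42, 14.64, 14.51 and 14.56 in the HN fetuses, in the same order. In both genes the groups came within 0.01 of touching, at L6 in LN and L2 in HN, and L5 was the highest fetus. The difference was 0.29 ± 0.12 for HSPD1 (unadjusted limma p = 0.040, adjusted 0.785) and 0.34 ± 0.12 for HSPE1 (unadjusted limma p = 0.022, adjusted 0.760), with an exact permutation p of 0.0286 for each. All 5 detected HSPD1 probes (0.19 to 0.40) and both HSPE1 probes (0.31 and 0.34) were on the LN side. L5 was also the fetus highest in erythroid markers, and without it the median of the pair was 0.26.

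TRAP1, the HSP90 of mitochondria, differed by 0.14 ± 0.11 (95% interval -0.11 to 0.39), with 2 of 3 probes higher in LN and a mean over probes of 0.01. Counted together, 9 detected members act in mitochondria (with DNAJA3, DNAJC11, DNAJC15, DNAJC19 and DNAJC30, a grouping made after the values were seen); 7 were higher in LN, with a median of 0.19. DNAJC15 and DNAJC11 were the lower ones (-0.15 and -0.05).

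The cytosolic HSP70 genes ranged from separated groups to widely scattered fetuses. HSPA8, the constitutive HSP70 that also strips clathrin coats, had log2 signals of 15.22, 14.68, 15.45 and 14.93 in L5, L6, L8 and L9 and of 15.01, 14.67, 14.55 and 13.68 in L1, L2, L3 and L10. The groups overlapped through L1, and L10 lay 0.87 below the next fetus. The difference was 0.59 ± 0.29 (unadjusted limma p = 0.072, exact permutation p = 0.114), all 6 probes were higher in LN (0.35 to 0.59), and without L10 it was 0.33. HSPH1, an HSP110 exchange factor, showed the same low fetus: its difference was 0.51 (95% interval -0.05 to 1.06, and 0.27 without L10), with L10 at 10.41 and all others between 11.20 and 11.88.

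HSPA1A, the stress-inducible HSP70, had the widest spread of the family. Its log2 signal was 10.93, 10.28, 11.98 and 11.82 in L5, L6, L8 and L9, and 11.74, 11.43, 9.85 and 8.88 in L1, L2, L3 and L10. High and low fetuses stood in both groups, so the difference of 0.78 ± 0.65 (unadjusted limma p = 0.266, exact permutation p = 0.343) was within the spread, and it was 0.24 without L10. HSPA14, a ribosome-bound HSP70, was the reverse case, a small but separated difference: 10.11, 10.02, 10.03 and 10.10 in LN against 9.95, 9.99, 9.88 and 9.59 in HN, in the same order of fetuses. The groups were 0.04 apart at their nearest fetuses (difference 0.21 ± 0.12, unadjusted limma p = 0.117, exact permutation p = 0.0286), and without L10 the difference was 0.12. Of the other members, HSPA4 differed by 0.28 (0.17 without L10), HSPA2 by 0.26 (-0.10 without L10) and the reticulum protein HSPA13 by 0.16 (0.01 without L6). HSPA12B, an endothelial relative, gave -0.01 at its representing probe (-0.15 with 75th percentile scaling) and 0.36 at its other one.

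**Figure D2:**
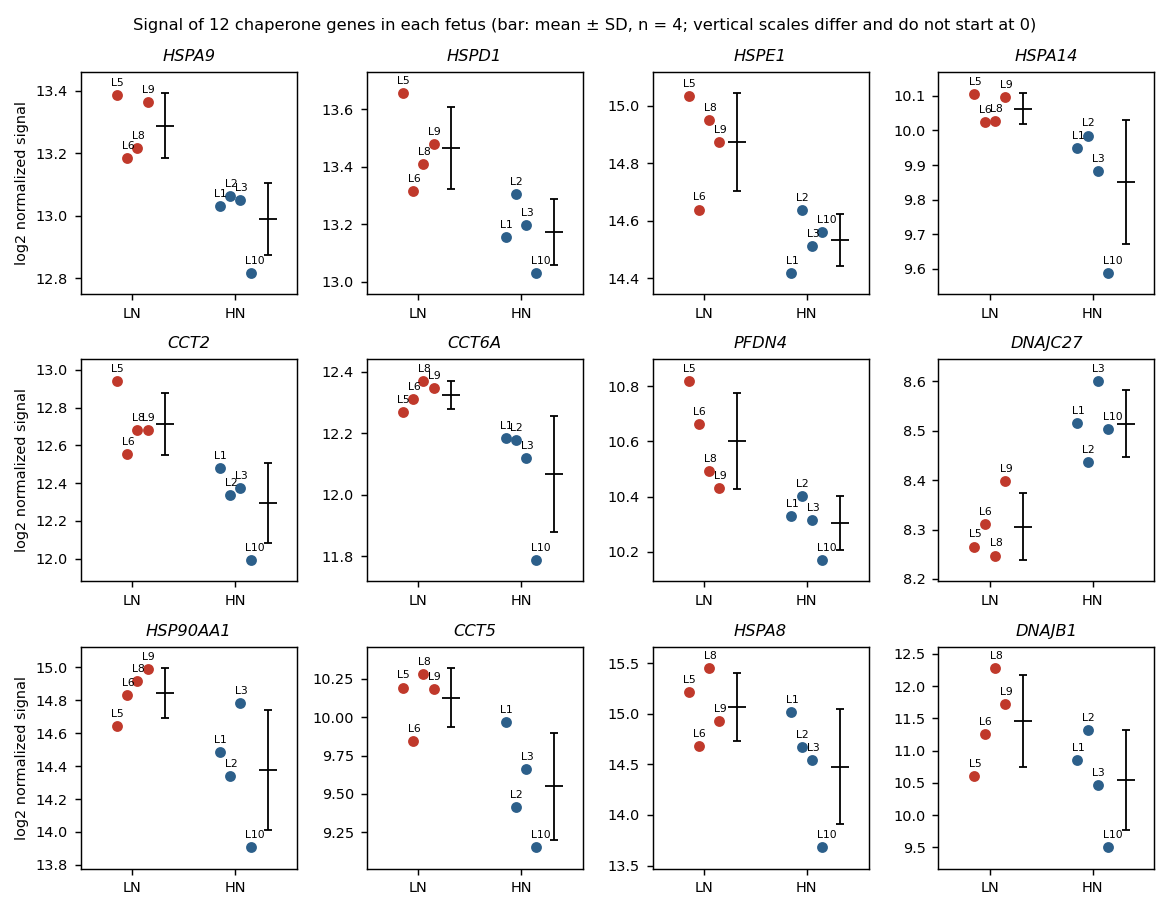
Log2 quantile-normalized signal of 12 chaperone genes in each of 4 LN (red) and 4 HN (blue) fetuses, with the mean ± SD of each group beside the points; vertical scales differ and do not start at 0. The first 8 genes are those without overlap, 7 with all LN points above all HN points and DNAJC27 the other way, and L10 is the lowest point in every panel except those of HSPE1 and DNAJC27.

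HSP90 genes were higher in LN at every probe of the cytosolic pair. HSP90AA1, the inducible isoform, had log2 signals of 14.64, 14.83, 14.92 and 14.99 in L5, L6, L8 and L9 and of 14.49, 14.34, 14.78 and 13.91 in L1, L2, L3 and L10. Only L3 of the HN fetuses reached into the LN range, above L5. The difference was 0.47 ± 0.19 (1.38-fold, unadjusted limma p = 0.036, adjusted 0.785, exact permutation p = 0.0571), and the 6 probes gave 0.43 to 0.57. Without L10 it was 0.31.

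HSP90AB1, the constitutive isoform, depended on the probe. At the representing probe the groups overlapped (15.18 to 15.51 in LN, 14.70 to 15.31 in HN) and the difference was 0.25 ± 0.16 (unadjusted limma p = 0.152, exact permutation p = 0.114). All 6 of its probes were higher in LN, by 0.25 to 0.46. For 3 of them the groups did not overlap (2.44% of all detected probes had every LN fetus higher). The same 3 had an unadjusted limma p of 0.05 or less, as had 2113 of all 33439 detected probes. Neither the representing probe nor the mean over its probes put this gene among those with an unadjusted p of 0.05 or less. Without L10 the representing probe gave 0.12.

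The cytosolic chaperonin, a double ring of 8 kinds of subunit that folds actin and tubulin, was higher in LN for 8 of its 9 measured genes, by 0.15 to 0.58. CCT5 had the lowest unadjusted limma p of all members (0.014, adjusted 0.760, exact permutation p = 0.0571) with a difference of 0.58 ± 0.19, or 1.49-fold. Its log2 signals were 10.19, 9.84, 10.28 and 10.18 in L5, L6, L8 and L9 and 9.97, 9.41, 9.66 and 9.15 in L1, L2, L3 and L10. L6 and L1 overlapped by 0.12, and the 3 CCT5 probes ranged from 0.20 to 0.58, with 0.35 over their mean. CCT2 had 12.94, 12.56, 12.68 and 12.68 in LN and 12.48, 12.34, 12.37 and 11.99 in HN, in the same order of fetuses. Its groups stood 0.08 apart, with a difference of 0.42 ± 0.15 (unadjusted limma p = 0.019, exact permutation p = 0.0286). It was 0.31 without L10.

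CCT6A showed tight LN values of 12.27, 12.31, 12.37 and 12.35 in L5, L6, L8 and L9. Its HN values were 12.18, 12.18, 12.12 and 11.79 in L1, L2, L3 and L10. The groups did not overlap (difference 0.26 ± 0.12, unadjusted limma p = 0.068, exact permutation p = 0.0286), all 5 probes were higher in LN (0.21 to 0.43), and without L10 the difference was 0.16. TCP1, CCT8, CCT4, CCT3 and CCT7 differed by 0.28, 0.27, 0.26, 0.22 and 0.15, with every detected probe on the LN side and the groups overlapping at the representing probe. Without L10, TCP1, CCT4, CCT3 and CCT7 differed by 0.14, 0.07, 0.14 and 0.08. At the representing CCT8 probe the unadjusted limma p was 0.091. It was 0.05 or less for 2 of the 3 CCT8 probes and for 2113 of all 33439 detected probes. The exception was CCT6B, a testis-enriched relative of CCT6A, with -0.04 (95% interval -0.30 to 0.22) at 1 probe (-0.18 with 75th percentile scaling) and 0.17 at the other. Over the 9 genes the median was 0.26 with all fetuses and 0.14 without L10.

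Prefoldin had 1 subunit without overlap. PFDN4 had log2 signals of 10.82, 10.66, 10.49 and 10.43 in L5, L6, L8 and L9 and of 10.33, 10.40, 10.32 and 10.17 in L1, L2, L3 and L10. The groups were 0.03 apart (difference 0.30 ± 0.13, unadjusted limma p = 0.043, adjusted 0.785, exact permutation p = 0.0286), all 3 probes were higher in LN (0.28 to 0.45), and L5 was the highest fetus. PFDN1, PFDN2 and PFDN6 differed by 0.06, 0.04 and -0.04.

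PFDN5 split the fetuses in a way that diet did not follow. Its log2 signals were 15.01, 16.38, 14.95 and 16.59 in L5, L6, L8 and L9 and 15.26, 15.30, 16.49 and 15.27 in L1, L2, L3 and L10. L6 and L9 in LN and L3 in HN were high and the other 5 low, with a gap of 1.08 between them. The difference between diets was 0.15 ± 0.45 (95% interval -0.87 to 1.17). The second PFDN5 probe ranged only from 14.49 to 14.81 over the 8 fetuses and did not set L9 and L3 apart. The same 3 fetuses lay above the other 5 at 15 of 160 member probes (9.38%, against 10% of all detected probes), among them all 4 probes each of DNAJC7 and DNAJC21, 2 of the 6 probes of HSP90AB1 and the probe of HSPA13, as counted after the PFDN5 values were seen.

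J-domain proteins choose which clients HSP70 receives, and are sorted into classes A, B and C by their domains. DNAJB1, the main cytosolic partner of inducible HSP70, had the largest difference of all 69 members. Its log2 signals were 10.60, 11.26, 12.28 and 11.72 in L5, L6, L8 and L9 and 10.86, 11.32, 10.47 and 9.50 in L1, L2, L3 and L10. L8 and L9 were the highest and L10 the lowest, but L5 and L6 lay within the HN range. The difference was 0.93 ± 0.45 (1.90-fold, unadjusted limma p = 0.068, adjusted 0.787, exact permutation p = 0.143), its other probe gave 1.03, and left-out fetuses moved it from 0.58 without L10 to 1.22 without L5. L8 was also the fetus highest in immediate early genes.

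Class A members, the general partners of HSP70, were higher in LN by 0.14 to 0.44. DNAJA1 and DNAJA2, of the cytosol, were higher at all 5 probes each, with 0.32 ± 0.24 (0.12 without L10) and 0.14 ± 0.14 (0.06 without L2) at the representing probes. DNAJA4 had log2 signals of 4.60, 3.60, 4.68 and 4.59 in L5, L6, L8 and L9 and 3.99, 3.97, 3.49 and 4.24 in L1, L2, L3 and L10. L6 alone placed it among the overlapping genes (difference 0.44 ± 0.27, and 0.70 without L6). With 75th percentile scaling the difference was 0.24 and with normexp background correction 0.08. DNAJA3, of mitochondria, gave 0.19 (0.11 without L8), but only 1 of its 3 probes was higher.

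In class B, DNAJB11 (0.29), DNAJB6 (0.27), DNAJB5 (0.25), DNAJB14 (0.20), DNAJB4 (0.11) and DNAJB12 (0.05) were higher and DNAJB9 (-0.11) lower, all with overlapping groups. Single fetuses moved several of them: without L8, DNAJB11 and DNAJB5 differed by 0.18 and 0.14 and DNAJB4 by -0.01, DNAJB6 by 0.15 without L10, DNAJB12 by 0.00197 without L2 and DNAJB9 by 0.00207 without L9. The second DNAJB5 probe gave -0.55. DNAJB2 gave -0.01 with quantile normalization and 0.01 with 75th percentile scaling. DNAJB13, an axonemal protein of motile cilia, had the lowest difference of any member, -0.70 ± 0.44 (95% interval -1.70 to 0.30). Its log2 signal was 5.13, 5.36, 5.56 and 4.12 in L5, L6, L8 and L9 and 5.76, 6.68, 4.68 and 5.86 in L1, L2, L3 and L10. The groups overlapped through L3, and the value was -1.07 without it, -0.39 without L2 and -0.32 with normexp.

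Class C is the most varied in function. DNAJC6, auxilin, which recruits HSPA8 to clathrin coats, had log2 signals of 6.41, 6.28, 5.80 and 5.87 in L5, L6, L8 and L9 and 5.82, 5.71, 5.68 and 5.64 in L1, L2, L3 and L10. L5 and L6 were high while L8 and L9 were near the HN fetuses (difference 0.38 ± 0.16, unadjusted limma p = 0.043, exact permutation p = 0.0571), and the second probe gave 0.01. The difference was 0.22 with 75th percentile scaling, 0.17 with normexp and 0.19 over the mean of probes, and the unadjusted limma p was above 0.05 in these 3. DNAJC27, which carries a small GTPase domain beside its J domain, was the 1 member lower in all LN fetuses than in any HN fetus. Its values were 8.27, 8.31, 8.25 and 8.40 in LN and 8.52, 8.44, 8.60 and 8.50 in HN, in the same order of fetuses. The groups were 0.04 apart (difference -0.21 ± 0.10, unadjusted limma p = 0.072, exact permutation p = 0.0286), and left-out fetuses moved it between -0.24 and -0.18.

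The other class C genes on the LN side included DNAJC24, which serves diphthamide synthesis (0.35), and the synaptic vesicle protein DNAJC5 (0.35). DNAJC30 (0.28) and the ribosome-associated DNAJC2 (0.24) followed. DNAJC25, DNAJC9, DNAJC14, DNAJC21, DNAJC13, DNAJC19 and DNAJC7 lay between 0.02 and 0.18. Without L3, DNAJC24 and DNAJC5 differed by 0.22 and 0.11. DNAJC30 differed by 0.18 without L8 and DNAJC25 by 0.06 without L5. On the HN side were DNAJC5G (-0.20), DNAJC15 (-0.15) and DNAJC17 (-0.11), with DNAJC22, DNAJC12, DNAJC18, DNAJC11, DNAJC16 and DNAJC10 between -0.09 and -0.01. DNAJC5G was at -0.10 without L5 and at -0.39 with 75th percentile scaling. DNAJC3, an inhibitor of eIF2 alpha kinases that works in the reticulum, differed by -0.05 ± 0.15 (95% interval -0.40 to 0.30).

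Small heat shock proteins hold unfolding proteins without ATP and showed no common direction. HSPB1, which is also linked to actin, had 15.37, 15.62, 16.00 and 15.76 in L5, L6, L8 and L9 and 15.42, 15.30, 15.80 and 15.43 in L1, L2, L3 and L10. The LN mean was higher by 0.20 ± 0.17 (0.10 without L8) and L5, L6 and L9 were within the HN range. HSPB6 pointed the other way, -0.19 ± 0.12 (95% interval -0.47 to 0.09), at both of its probes, with L6 at 10.80 and L8 at 10.75 inside an HN range of 10.68 to 11.04. HSPB2 and HSPB8, both also expressed in muscle, gave 0.00146 and -0.0046 at the representing probes, and HSPB8 turned its sign with 75th percentile scaling.

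**Figure D3:**
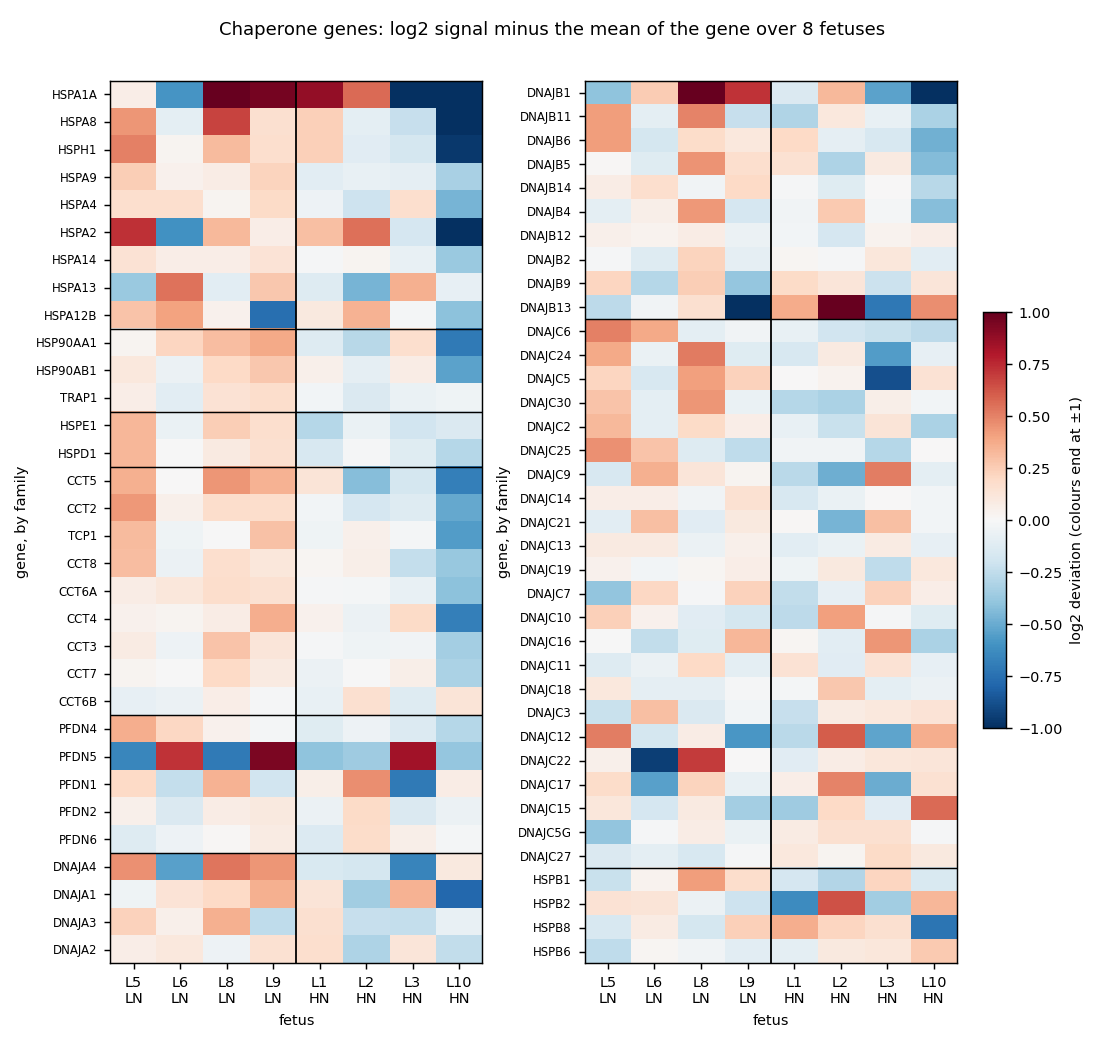
Log2 signal of each of 69 chaperone genes minus its mean over the 8 fetuses (red above, blue below; colours end at ± 1), with LN fetuses to the left of the vertical line and families divided by horizontal lines. The L10 column is blue for most of the HSP70, HSP90 and cytosolic chaperonin genes, and PFDN5 is red in L6, L9 and L3.

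Single fetuses weighed on these differences. HN fetus L10 had the lowest value of the 8 fetuses for 30 of 69 members (43.5%, against 17.5% of all detected genes), and LN fetus L8 the highest for 21 (30.4%, against 11.3%). Without L10, 50 of 69 members were higher in LN, 48 of them also with it. The median difference went from 0.17 to 0.12. The same 7 members had no overlap (10.1%, against 3.23% of all genes without that fetus). Apart from renormalization, leaving out a fetus cannot make separated groups overlap, so this count does not test the weight of L10. Without L10 the medians of HSP70 and HSP110, of HSP90 and of DNAJA went from 0.28, 0.25 and 0.26 to 0.17, 0.15 and 0.16. The median of the mitochondrial chaperonin was 0.32 with L10 and 0.30 without it. Over all 8 ways of leaving out 1 fetus, the number of members higher in LN lay between 49 and 56 and the median between 0.12 and 0.21. Of the 50 members higher in LN with all fetuses, 41 stayed above 0 whichever fetus was left out.

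**Figure D4:**
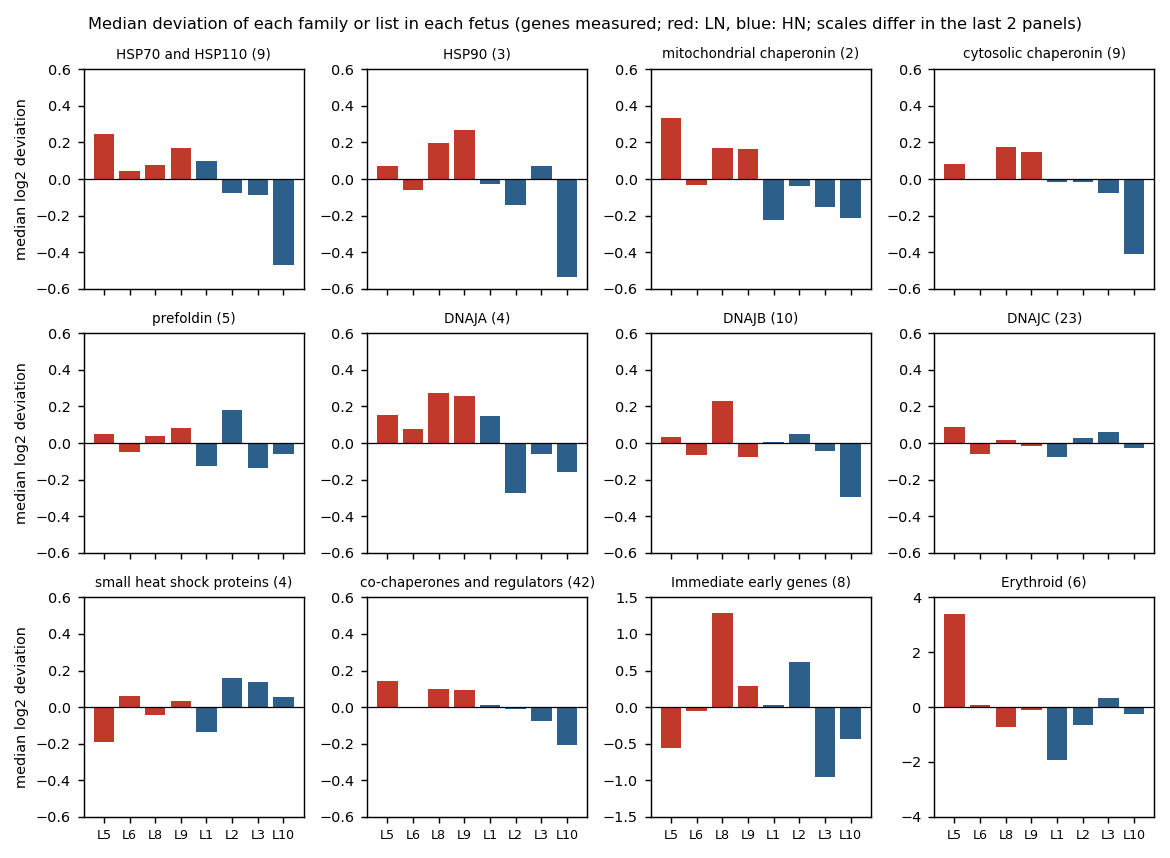
Median log2 deviation from the mean over 8 fetuses, in each fetus, for the 9 chaperone families, the co-chaperones, the immediate early genes and the erythroid markers (number of genes in brackets; red LN, blue HN; the last 2 panels have wider axes). L10 is at -0.47 for HSP70 and HSP110, at -0.54 for HSP90 and at -0.41 for the cytosolic chaperonin, whereas L8 leads the immediate early genes at 1.29 and L5 the erythroid markers at 3.41.

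Genes that work with the chaperones were described beside them. Of 43 listed co-chaperones and regulators, 42 were measured and 33 were higher in LN, with a median of 0.15 (0.09 without L10), and 0 passed an adjusted p of 0.05 in limma's test. An unadjusted limma p of 0.05 or less was found for 1 of the 42 (2.38%, against 3.3% of all genes), PTGES3, the HSP90 co-chaperone p23, and 2 had all LN fetuses above all HN fetuses (4.76%, against 2.59%). PTGES3 had log2 signals of 12.81, 12.75, 12.67 and 12.86 in L5, L6, L8 and L9 and 12.65, 12.52, 12.53 and 12.09 in L1, L2, L3 and L10, without overlap (difference 0.33 ± 0.14, and 0.20 without L10). HSBP1, a small protein that binds heat shock factor, was also without overlap (0.14 ± 0.10; 13.06 to 13.13 in LN, 12.90 to 12.98 in HN). STIP1, which links HSP70 to HSP90, and AHSA1, which stimulates HSP90, differed by 0.32 and 0.20, and by 0.21 and 0.07 without L10. HSF1 itself differed by -0.04 ± 0.12 and HSF2 by 0.22 ± 0.12. BAG3 and CHORDC1, both targets of heat shock factor, differed by 0.07 ± 0.24 and 0.06 ± 0.22, and by -0.08 and -0.14 without L10.

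Leaving aside the 4 DNAJ genes already counted, 14 of 15 listed genes of the endoplasmic reticulum were measured, and 9 were higher in LN, with a median of 0.11. HSPA5, the HSP70 of the reticulum, differed by 0.18 ± 0.15, and HSP90B1 and HYOU1, its HSP90 and HSP110 counterparts, by 0.12 each, with overlapping groups. Without L8, HSPA5 and HYOU1 differed by 0.07 and 0.01, HSP90B1 differed by 0.01 without L1, and the median over all 18 measured reticulum genes, the DNAJ genes included, went from 0.09 to 0.01 without L8 and to 0.03 without L1. Of 17 listed mitochondrial protease and import genes, 15 were measured and 11 were higher, with a median of 0.12. The matrix protease LONP1 (0.09 ± 0.10) and the import channel TOMM40 (0.25) had no overlap between groups (13.3% of the 15, against 2.59% of all genes). The LONP1 groups were only 0.0011 apart at their nearest fetuses. The reticulum disulfide isomerase PDIA3 also had no overlap (0.14, and 7.14% of the 14). These 3 were picked out after their values were seen.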

How the data were processed

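Liver RNA of 8 fetuses, labelled with Cy3, was hybridised to Agilent bovine arrays. The authors deposited scanner files in which processed signal intensity was background-subtracted by Feature Extraction 11.0.1.1, with flags for spots well above background, saturated or outlying. For 31068 probes log2 values by the authors were deposited as well; quantile normalization of the intensities gave its values with a median absolute difference of 0.000104 log2 units and a largest of 0.161. The methods name quantile normalization in GeneSpring and no test for the arrays. The array design refers to UMD 3.1 and the gene table to ARS-UCD2.0, so no coordinates are given.

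Here control spots and 16 probes flagged as outliers were left out, and log2 intensities of 43637 probes were quantile normalized. Of 27347 probes with an mRNA accession, 26699 matched a gene. The 2-sided moderated test of limma 3.58.1 (R 4.3.3) compared LN with HN over 33439 detected probes, with Benjamini-Hochberg adjustment, and intervals are 95%. Exact permutation tests used all 70 divisions of the fetuses. A fold is 2 to the power of the log2 difference, and precision is limited by how few arrays there are. The labels give separate fetuses as replicates.

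Members and lists (co-chaperones, reticulum chaperones, mitochondrial proteases and import, immediate early genes and cell type markers) were chosen with earlier results of these data known. Genes were named where groups did not overlap, or as those of lowest p (at most 0.05), highest signal, highest or lowest difference in their family, or with all probes at p of at most 0.05, with 9 regulators and reticulum chaperones beside them; values of other members, such as HSPH1, were picked out after they were seen. Marker lists gave medians of -0.16 (macrophage, 5 measured), 0.10 (endothelial, 6), -0.26 (stellate, 6) and -0.15 (lymphocyte, 4). Alternatives were 75th percentile scaling, normexp, the authors' log2 table, 2 other filters, trend and robust moderation, slide position as a block, mean over probes, Student's test and leaving out each fetus; counts of members higher and without overlap with each fetus left out, with the signs of all members and the list medians, were added after seeing the data. Not analysed here for lack of a matched probe were CCT8L2, DNAJB8, DNAJC1, DNAJC28, DNAJC4, DNAJC8, HSPA12A, HSPA4L, HSPA6 and HSPB7, and not detected were DNAJB3, DNAJB7, DNAJC5B, HSPA1L, HSPB3 and HSPB9.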

Additional observations from a re-analysis of the deposited data

Results flagged for a closer look

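Of 58 groups of 4 fetuses tested over the named genes, 5 held a fetus far from the other 3, where chance flags about 1 in 20. HN fetus L10 was low for CCT6A (11.79, with the others between 12.12 and 12.18) and for HSPA9 (12.82 against 13.03 to 13.06). HN fetus L1 was low for DNAJC3 (12.54 against 12.85 to 12.91). LN fetus L6 was low for DNAJA4 (3.603 against 4.588 to 4.678). HN fetus L3 was high for PFDN5 (16.49 against 15.26 to 15.30), a value near those of L6 and L9 in LN. All are log2 signals.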

How the results depend on the processing

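No member passed an adjusted p of 0.05 under any alternative run. Each group held only 4 fetuses, and slide cannot be told apart from diet. The number of members higher in LN at an unadjusted p of 0.05 (8) was 4 with slide position as a block and between 3 and 7 with a fetus left out. The number lower (0) was 1 with 75th percentile scaling (DNAJC5G), with normexp, without a filter on dim probes and by Student's test (DNAJC27 in these 3), and between 0 and 1 with a fetus left out (DNAJB13 without L3). The median over members stayed above 0 in every setting.

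Of the 69 members, 23 changed sign with some fetus left out (9 of those higher in LN and 14 of those lower). Among those outside the naming rule were HSPA2 (-0.1007 without L10), PFDN1 (-0.1702 without L3), DNAJB4 (-0.01369 without L8), DNAJB9 (0.002068 without L9), DNAJC15 (0.015 without L10) and DNAJC17 (0.0567 without L6). The small heat shock protein median was 0.01456 with 75th percentile scaling, 0.01063 without a filter and 0.00934 over the mean of probes, and between -0.04623 and 0.1015 with a fetus left out. DNAJB2 was 0.01073 with 75th percentile scaling and 0.01948 with normexp, and CCT6B and HSPA12B were 0.06355 and 0.1769 over the mean of probes. With a fetus left out, the ranges were -0.0811 to 0.0347 for DNAJB2, -0.0941 to 0.0026 for CCT6B, -0.1472 to 0.2412 for HSPA12B, -0.158 to 0.0161 for DNAJC3, -0.1357 to 0.4521 for PFDN5, -0.0934 to 0.0131 for PFDN6, -0.0048 to 0.0974 for the DNAJC median and -0.0024 to 0.1094 for the prefoldin median. The cause was not tested. No paired analysis was possible because the fetus numbers are not shared between LN and HN; the block above follows only the position of an array on its slide.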
